A study of Mus musculus with 4 samples.

Results

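Kinesins are the motor proteins that walk along microtubules, and this account covers their genes in mouse embryonic stem cells that have or lack the B-type lamins. Members were the protein-coding genes of the count table whose symbol is Kif followed by a digit, or Kifc1, Kifc2 or Kifc3, and 42 of its 37991 rows met that rule. Of these, 14 were placed with the mitotic motors, 15 with the transport motors and 12 with the other motors, which act mostly in cilia, signalling or microtubule growth. The remaining member, Kif1bp, met the rule by name but encodes a kinesin-binding protein and is no motor.

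RNA was sequenced from 2 wild-type (wt) libraries and 2 libraries of cells null for both B-type lamins (dKO), named replicates 1 and 2 of each genotype. All 4 carried the strain label ZHBTc4, a mouse embryonic stem cell line in which the Oct4 gene is under tetracycline control. No treatment or age is given in the labels. Whether the replicates came from separate cultures or clones is not given in the sources used here, so p-values measure the spread between these libraries, and lamin loss and other differences between the cell lines cannot be told apart. Total counts ran from 12899964 to 16697970 per library. CPM are counts scaled to library size, after TMM scaling for library composition. Lmnb1 had 667 and 547 CPM in wt cells and 4.24 and 6.02 CPM in dKO cells, and Lmnb2 had 105 and 117 CPM against 2.52 and 3.28 CPM. All 8 embryonic stem cell markers were expressed, with a summed level of 4978 and 5008 CPM in wt and 5712 and 6108 CPM in dKO libraries. Zfp42 alone had 666 and 613 CPM in wt and 1449 and 1435 CPM in dKO libraries. By the fit, 4 of the 8 markers were higher and 4 lower in dKO cells. The summed level of 8 fibroblast markers was 4.85 to 12.4 CPM over the 4 libraries and that of 6 multiciliated cell markers 13.1 to 16.5 CPM. None of these markers, nor of the neuron markers given with Kif1a, was at 0 in all 4 libraries.

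A kinesin couples the hydrolysis of ATP to steps along a microtubule, most of them toward the plus end. Mitotic kinesins build and elongate the spindle, move chromosomes and complete cytokinesis, and their genes are transcribed mainly in the later part of the cell cycle. Transport kinesins carry organelles and vesicles, several of them chiefly along axons, and kinesin-2 motors carry cargo into cilia. Embryonic stem cells divide fast, so mitotic motors are well represented in them. B-type lamins have themselves been described as part of a matrix around the mitotic spindle.

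Promoter sequences of the mitotic motors are shown first because the letters that set them apart from the transport motors lie close to the gene start. The CHR, for cell cycle genes homology region, is an element of late cell cycle promoters, often found downstream of boxes bound by the factor NF-Y. It was searched as TTTGAA or its reverse complement TTCAAA or as TTCGAA, and the NF-Y box as CCAAT or ATTGG, which covers both strands, and no match overlapped another. RefSeq promoter windows (GRCm38.p6, 250 bases before to 50 after the start) matched 33 of the 42 members. The windows below run from 50 bases before to 50 after the start, 5′ to 3′ on the gene's strand, with each motif in capitals. They are the mitotic motors whose CHR lies inside the window.

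Kif11 (chr19:37376332-37376431, plus strand): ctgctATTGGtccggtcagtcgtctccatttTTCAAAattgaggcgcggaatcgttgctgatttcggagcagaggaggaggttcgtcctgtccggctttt
Kif15 (chr9:122951031-122951130, plus strand): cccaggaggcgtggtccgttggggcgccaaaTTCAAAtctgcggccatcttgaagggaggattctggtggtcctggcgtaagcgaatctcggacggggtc
Kif18b (chr11:102925075-102925174, minus strand): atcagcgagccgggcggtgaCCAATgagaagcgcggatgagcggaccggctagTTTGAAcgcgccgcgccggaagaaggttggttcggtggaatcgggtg
Kif20b (chr19:34922308-34922407, plus strand): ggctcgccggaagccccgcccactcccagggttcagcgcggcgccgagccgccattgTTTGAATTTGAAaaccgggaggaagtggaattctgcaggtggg
Kif22 (chr7:127042371-127042470, minus strand): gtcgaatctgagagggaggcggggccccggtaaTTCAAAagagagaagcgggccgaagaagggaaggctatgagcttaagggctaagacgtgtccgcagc
Kif23 (chr9:61946750-61946849, minus strand): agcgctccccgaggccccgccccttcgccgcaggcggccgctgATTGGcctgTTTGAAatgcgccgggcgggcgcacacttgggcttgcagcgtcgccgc
Kif4 (chrX:100626015-100626114, plus strand): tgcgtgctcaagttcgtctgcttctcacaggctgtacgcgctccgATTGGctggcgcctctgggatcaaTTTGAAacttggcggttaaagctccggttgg
Kifc1 (chr17:33890584-33890683, minus strand): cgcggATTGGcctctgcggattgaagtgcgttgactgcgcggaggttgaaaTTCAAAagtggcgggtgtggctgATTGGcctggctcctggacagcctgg

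For comparison, the same window of Kif13a, the transport motor with the second highest level, and the longer window of Kif1b, the member with the lowest p of the genotype comparison, are given. Kif13a holds neither motif there, and Kif1b, shown for 1 of its 2 starts, holds 2 NF-Y boxes further upstream.

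Kif13a (chr13:46929669-46929768, minus strand): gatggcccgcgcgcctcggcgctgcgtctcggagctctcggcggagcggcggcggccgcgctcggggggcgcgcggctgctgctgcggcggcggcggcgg
Kif1b (chr4:149307684-149307983, minus strand): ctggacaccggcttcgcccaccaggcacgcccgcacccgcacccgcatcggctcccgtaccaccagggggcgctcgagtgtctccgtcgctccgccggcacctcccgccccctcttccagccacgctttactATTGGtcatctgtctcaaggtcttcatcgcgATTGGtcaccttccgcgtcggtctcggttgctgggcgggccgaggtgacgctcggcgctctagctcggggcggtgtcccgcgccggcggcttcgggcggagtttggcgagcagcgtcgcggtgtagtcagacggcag

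In the 100 bases around the start, 8 of 14 mitotic promoters (57.1%, 13 genes) held a CHR, against 1 of 12 transport promoters (8.3%, 10 genes) and 5.3% of all 32851 promoters. In the full 300 bases these counts were 10 of 14 (71.4%), 1 of 12 and 19.2% of all promoters. An NF-Y box lay in 8 of 14 mitotic promoters (57.1%), 4 of 12 transport promoters (33.3%) and 37.4% of all. Both motifs together were in 7 of 14 mitotic promoters, in 0 of 12 transport promoters and in 7.5% of all. The other motors had 10 promoters (9 genes), and 2 of these 10 held a CHR in the 100 bases around the start. In the full 300 bases, 3 of the 10 held a CHR, 4 an NF-Y box and 3 both motifs. The motif pair was thus not limited to the mitotic motors. The mitotic CHR matches near the start began between position -19 (Kif11 and Kif15) and position 19 (Kif4), counted from 0 at the first transcribed base. In the transport class the match was that of Kif1a, at -44 from 1 of its 2 starts. Kif20b, which works late in cytokinesis, carried the CHR in tandem. Kif2c had its CHR further upstream, at -103, and the promoters of Kif18a and Kif2a held neither motif. Such short matches are a description of these windows and were not tested as binding sites.

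**Figure D1:**
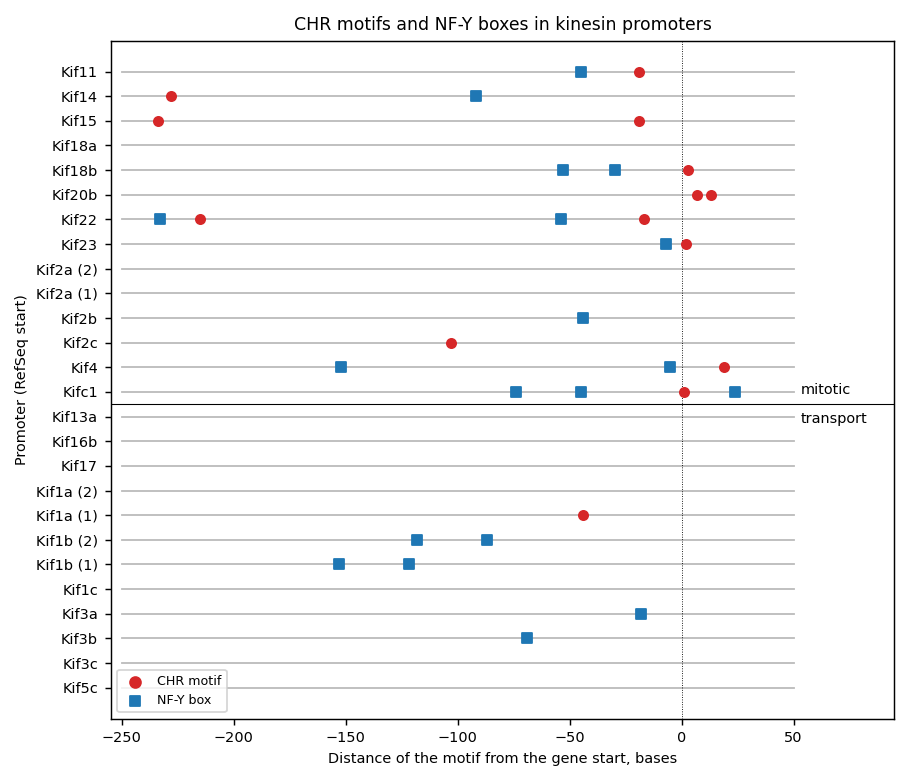
Positions of the CHR (circles) and of the NF-Y box (squares) in each RefSeq promoter window of a mitotic (top) or transport motor gene (bottom); the x axis is the distance from the gene start in bases, and numbers in brackets separate several starts of a gene. Circles lie within 20 bases of the start in 8 mitotic genes.

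Mitotic motors were the most abundant kinesin transcripts of these cells. Levels are compared between genes as RPKM, the CPM per kilobase of exon, averaged over the 4 libraries. The median RPKM was 21.8 for the 14 mitotic, 4.46 for the 15 transport and 0.457 for the 12 other motors. A level of at least 5 RPKM was reached by 12 mitotic, 5 transport and 0 other motors. Kif20a, needed for cytokinesis, led with 51.2 RPKM, followed by Kif5b, the heavy chain of the ubiquitous conventional kinesin, with 49.1 RPKM. Kif5b was alone among the transport motors in the 10 highest levels, since the next transport motor, Kif13a, had 10.2 RPKM. Kif11, the motor that pushes the spindle poles apart, had 41.7 RPKM, and Kif2c, which takes apart microtubule ends at kinetochores, had 32.5 RPKM. The differences between Kif20a and Kif5b, and among Kif2c, Kif22, Kifc1 (30.7 RPKM) and Kif18b (29.9 RPKM), were smaller than the spread between libraries, and the order of Kif20a, Kif11 and Kif5b changed when the longest transcript was used as length. Kif2b, a mitotic relative of Kif2a and Kif2c, had 0 counts in all 4 libraries, which allows at most 0.179 to 0.235 CPM per library by counting error alone. All counts of this kind come from reads without molecular identifiers.

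**Figure D2:**
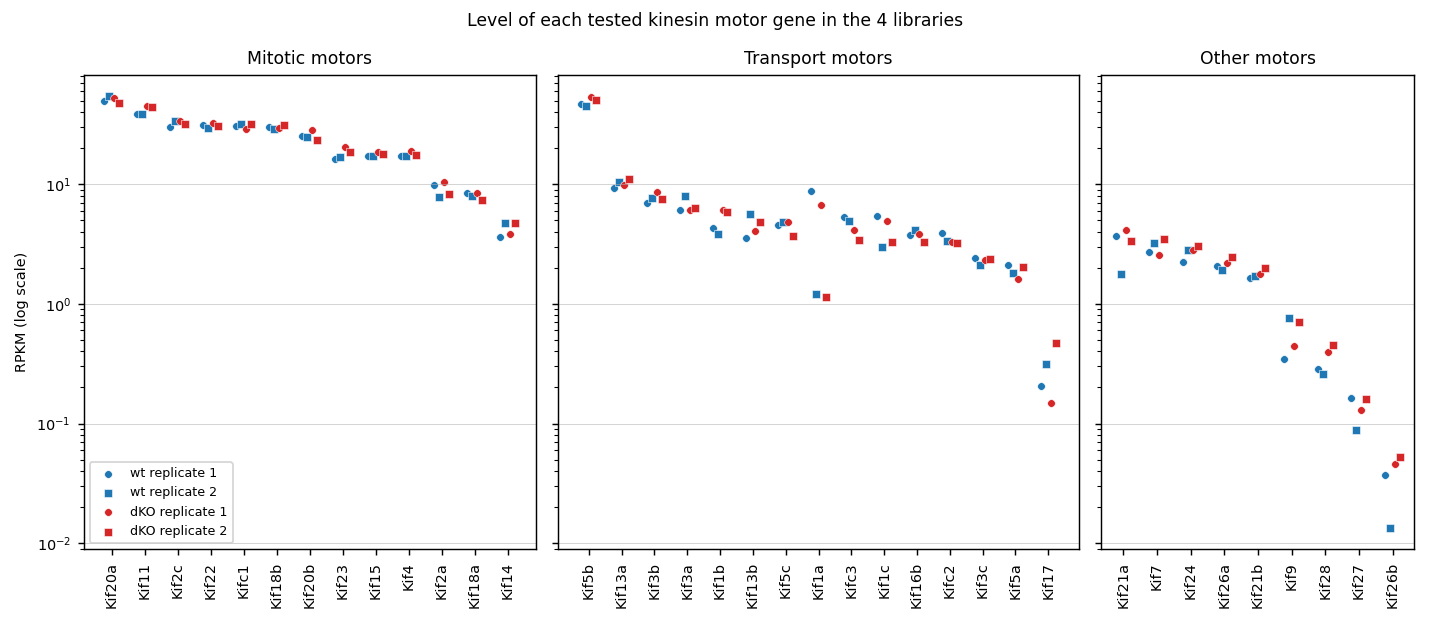
RPKM on a log axis of each tested motor gene in the 4 libraries, with wt in blue, dKO in red, replicate 1 as circles and replicate 2 as squares. Mitotic motors other than Kif2a, Kif18a and Kif14 lie above 10 RPKM, and Kif1a splits by replicate number and not by genotype.

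No kinesin gene passed the test between dKO and wt cells in the fit with genotype as its only term. The p-values in this Results section come from that fit. In edgeR's quasi-likelihood test 38 of the 42 members had enough counts, 0 of them had an adjusted p of at most 0.05 over all genes, and 2 had an unadjusted p under 0.05. Across all 14027 tested genes these shares were 0.0855% and 5.57%, so the members' 2 of 38 is near the background. DESeq2 and limma-voom, also fitted with genotype as the only term, called 0 members too. An edgeR fit with the replicate number as a block called 2 members, Kif1b and Kifc3, beside 9.26% of all tested genes. The labels do not pair libraries by that number, though deviations of libraries that share it correlated (r = 0.65 over all tested genes). Log2 fold changes are dKO minus wt, and their median over the 38 members was 0.05, with 26 positive and 12 negative, against -0.002 over all tested genes. Of all 14027 tested genes 6965 were positive. Of the 4363 genes with a mean of at least 50 CPM, 2469 were positive, and their median was 0.026. The 4 members with too few counts were Kif2b, Kif6, Kif12 and Kif19a. The lowest dKO value was above the highest wt value in 11 of the 38 members, and the reverse held in 2. Over all tested genes this held for 17.2% and 16.4%, and over the 4363 genes with a mean of at least 50 CPM for 912 and 576 genes. Nothing particular to kinesins is read from these counts.

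**Figure D3:**
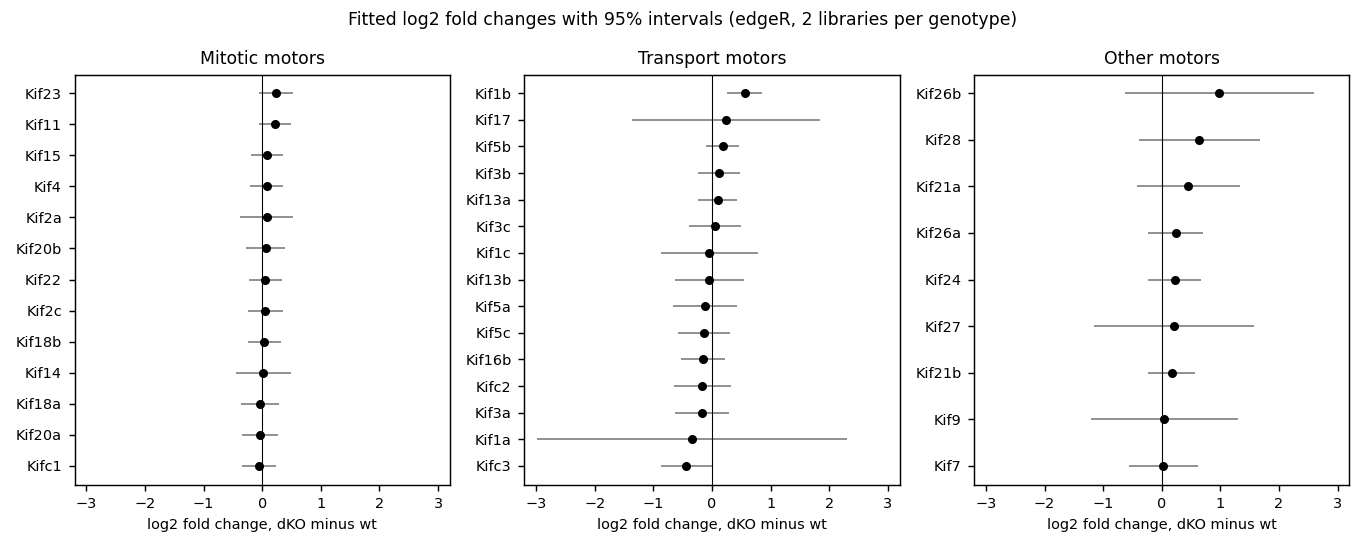
Fitted log2 fold change of dKO minus wt (points) with its 95% interval (lines) for the 13, 15 and 9 tested mitotic, transport and other motors. The intervals of Kif1b and Kifc3 lie to one side of 0, and those of the other motors drawn cross it.

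The mitotic motors were close to constant across the 4 libraries. Their 13 tested members had log2 fold changes from -0.05 (Kifc1) to 0.23 (Kif23), with a median of 0.05, 10 positive and 3 negative. Among all genes with a mean of at least 50 CPM, 2469 of 4363 were positive, with a median of 0.026. All 13 mitotic intervals lay within a 1.5-fold change in either direction, as did those of 37.2% of all tested genes, which have lower counts on the whole. The ratio of the highest to the lowest library had a median of 1.14 over these members, against 1.24 over all genes with a mean of at least 50 CPM, a level that 12 mitotic members reached. The summed level of the mitotic motors was 1773 and 1796 CPM in wt cells and 1935 and 1830 CPM in dKO cells, a ratio of 1.05. In bulk RNA, the share of cells in mitosis and the RNA per cell cannot be told apart.

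Kif11 (ENSMUSG00000012443, chromosome 19, 37450893 to 37496349 in the table's own build) had 288 CPM in both wt libraries and 337 and 332 CPM in the dKO libraries. The dKO libraries were thus above both wt libraries, by a log2 fold change of 0.22 (95% interval -0.06 to 0.49, edgeR adjusted p = 0.923). Kif23, the motor of the centralspindlin complex that bundles microtubules before abscission, had 129 and 133 CPM in wt and 162 and 146 CPM in dKO libraries. Its groups did not overlap either, with a log2 fold change of 0.23 (-0.06 to 0.53, edgeR adjusted p = 0.918). Kif15, which can take over part of the work of Kif11, had 189 and 191 CPM in wt and 206 and 198 CPM in dKO libraries. Kif4, a chromosome-bound motor that works with Prc1 at the spindle midzone, had 95.6 and 95.1 CPM in wt and 103.6 and 97.7 CPM in dKO libraries. These 4 are all the mitotic motors whose genotypes did not overlap, each with dKO higher and none past the threshold, 4 of 13 beside 17.2% of all tested genes and 912 of the 4363 genes with at least 50 CPM.

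Kif20a had 214 and 236 CPM in wt and 229.8 and 208 CPM in dKO libraries, so its groups overlapped (log2 fold change -0.04, interval -0.35 to 0.26). On 29.3% of its exon bases Kif20a overlaps Cdc23 on the other strand, and reads there can be assigned to either gene or dropped. Several other members also overlap a gene on the opposite strand, and their counts are uncertain in the same way, since no source used here says whether counting used strand. Kif2c had 131 and 147 CPM in wt and 148 and 139.9 CPM in dKO libraries, and Kif22, a motor on chromosome arms, had 154 and 144 CPM against 158 and 152 CPM. Kifc1, a minus-end motor that focuses spindle poles, had 105 and 108 CPM in wt and 98.4 and 108 CPM in dKO libraries. Kifc1 has a close relative on the same chromosome, Kifc5b, with 40.6 and 42.3 CPM in wt and 39.5 and 42.6 CPM in dKO libraries, and counts of both are uncertain where their sequences match. The other mitotic motors were Kif18a, Kif18b, Kif20b, Kif2a and Kif14, with log2 fold changes of -0.03, 0.03, 0.06, 0.08 and 0.02 and genotypes that overlapped.

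None of the listed genes that work with the mitotic motors passed the test. Among the 15 spindle partners the log2 fold change was above 0 in 13 and below 0 in 2, and the median was 0.07. It was above 0 in 2469 of the 4363 genes with a mean of at least 50 CPM. Tpx2, a spindle assembly factor, had a log2 fold change of 0.05, and Anln, a scaffold of the cleavage furrow, had 0.42 (edgeR adjusted p = 0.712), the only partner with an unadjusted p under 0.05. Cenpe, a kinetochore kinesin whose symbol lies outside the rule, had 153.5 and 154 CPM in wt and 157 and 126 CPM in dKO libraries. Of 15 other genes of the G2 and M phases 0 passed, 12 were positive and 3 negative, with a median of 0.08. The most abundant, the transcription factor Mybl2 and the topoisomerase Top2a, had log2 fold changes of 0.12 and 0.14. Ttk (0.64), Lin54 (0.36) and Bub1b (0.32), named after their values were seen, had an unadjusted p under 0.05 and adjusted p of 0.463 to 0.844 in edgeR.

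**Figure D4:**
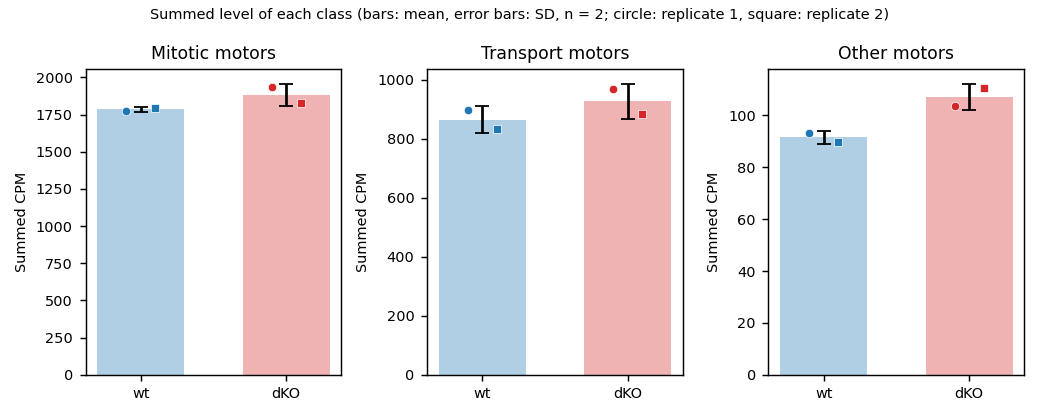
Summed CPM of all members of each class by genotype (bars, mean; error bars, SD, n = 2; circle, replicate 1; square, replicate 2), with axes that start at 0. The dKO means were 1.05, 1.07 and 1.17 times the wt means for the mitotic, transport and other motors, and the transport libraries of the 2 genotypes overlapped.

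The transport motors spanned a wider range of genotype differences than the mitotic motors. All 15 were tested, with log2 fold changes from -0.44 (Kifc3) to 0.56 (Kif1b), a median of -0.04, 6 positive and 9 negative. Their median SE was 0.178, against 0.118 for the mitotic motors, so the wider range of fitted values is not by itself a larger effect. The 95% interval lay within 1.5-fold for 6 of the 15 (40.0%), beside 37.2% of all tested genes. The summed level of the transport motors was 898 and 832 CPM in wt and 968 and 884 CPM in dKO libraries, which overlap. Kif5b took the largest part of that sum.

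Kif1b (ENSMUSG00000063077, chromosome 4, 148550428 to 148681802) had the lowest p of all members. It encodes a kinesin-3 motor whose isoforms carry mitochondria and synaptic vesicle precursors. Kif1b had 75.5 CPM in wt replicate 1 and 67.7 in wt replicate 2, against 106.9 and 104.1 CPM in dKO cells. Both dKO libraries were thus above both wt libraries, and the genotype means, 71.6 ± 5.57 and 105.5 ± 2.02 CPM (SD, n = 2 each), differed by more than the spread within either genotype. Its fold was 1.47 (95% interval 1.20 to 1.82, log2 fold change 0.56, SE 0.12), with an unadjusted p of 0.0041 from edgeR and an adjusted p of 0.49. Among the 14027 tested genes, Kif1b was number 118 in order of p, and it is not called in this fit. Kif1b was called only with the replicate number as a block. No other annotated gene overlaps its exons. With each library left out in turn its log2 fold change ran from 0.48 to 0.64. Its sign could not change there, since both dKO libraries were above both wt libraries.

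Kifc3 (chromosome 8, 97623732 to 97666440), a minus-end motor found at cell junctions, was the other member with an unadjusted p under 0.05. It had 28.0 and 26.2 CPM in wt and 22.04 and 17.96 CPM in dKO libraries. Both dKO libraries were below both wt libraries, with a log2 fold change of -0.44 (interval -0.87 to -0.003, edgeR unadjusted p = 0.0489, adjusted p = 0.888).

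Kif1a (ENSMUSG00000014602, chromosome 1, 94912033 to 94998442), a kinesin-3 motor of axons that carries synaptic vesicle precursors, followed the replicate number and not the genotype. It had 82.0 and 11.2 CPM in wt replicates 1 and 2, and 62.6 and 10.7 CPM in dKO replicates 1 and 2. Replicate 1 was thus 7.34-fold above replicate 2 in wt and 5.86-fold in dKO cells, while the fitted genotype difference was -0.34 on the log2 scale, with an interval of -2.99 to 2.31. Of 8975 genes with a mean of at least 10 CPM, only Kif1a and Slc23a1 had at least 4 times as much in replicate 1 as in replicate 2 in both genotypes, and no gene besides Kif1a was as high in both ratios. What distinguishes the replicates is not given in the sources used here.

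Neuron markers moved with Kif1a in part. Their summed level over 8 markers was 306 and 212 CPM in wt replicates 1 and 2 and 364 and 254 CPM in dKO replicates 1 and 2. Stmn2, which these cells expressed at 242, 167, 309 and 209.9 CPM, made up most of that sum. Elavl3 was at 7.90 and 2.76 CPM in wt and 9.09 and 3.94 CPM in dKO replicates 1 and 2. The defining markers Rbfox3, Dcx, Snap25 and Syt1 were at no more than 1.25 CPM in every library. Rbfox3 (0.47 and 1.05 CPM in wt, 0.80 and 1.25 CPM in dKO) and Dcx were higher in replicate 2 of both genotypes, opposite to Kif1a. Syt1 (0.86 and 0.39 CPM in wt, 0.61 and 0.30 CPM in dKO) and Snap25 were higher in replicate 1 of both genotypes. So were Tubb3 (45.1 and 31.6 CPM in wt, 32.5 and 28.7 CPM in dKO) and Map2. Foxj1, a regulator of motile cilia, also followed the replicate number, with 3.44 and 0.46 CPM in wt and 2.64 and 0.48 CPM in dKO replicates 1 and 2. Of the other multiciliated markers, Dnah5, Ccdc39, Rsph1 and Tekt1 were higher in replicate 2 of both genotypes, and Mcidas had 1 count in all. The part of either cell type in the Kif1a values was not tested.

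**Figure D5:**
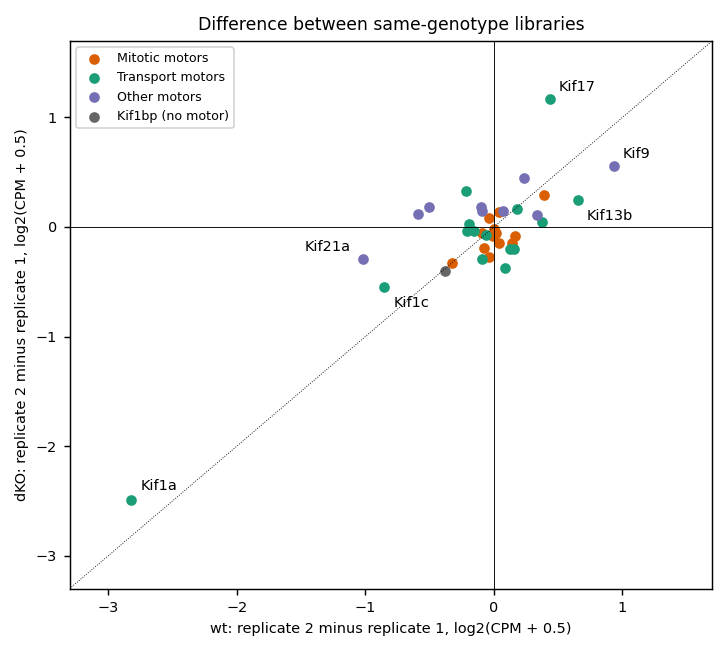
Difference between replicate 2 and replicate 1 on the log2(CPM + 0.5) scale in wt (x axis) and in dKO cells (y axis) for the 38 tested members, with a dotted line where both are equal. Kif1a lies far from the other members, at -2.82 in wt and -2.50 in dKO cells.

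Other kinesin-3 motors shared the split by replicate number to a smaller degree or the opposite way, except Kif16b, which showed no such split. Kif1c, which carries vesicles in many cell types, had 39.8 and 21.8 CPM in wt and 35.5 and 24.2 CPM in dKO replicates 1 and 2. Kif13b had 46.7 and 73.7 CPM in wt and 53.4 and 63.4 CPM in dKO replicates 1 and 2, with replicate 2 higher. Kif13a, a motor of recycling endosomes, had 74.7 and 84.5 CPM against 80.3 and 90.2 CPM, also higher in replicate 2. Kif16b, a motor of early endosomes, had 33.85 and 37.73 CPM in wt and 34.57 and 29.95 CPM in dKO replicates 1 and 2. Its replicates thus differed in opposite directions, and its log2 fold change between genotypes was -0.15. Replicates differed in the same direction in both genotypes in 24 of the 38 members (63.2%), against 72.3% of all tested genes. The replicate difference was larger than the genotype difference in 18 members (47.4%), against 59.4% of all tested genes.

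The genes of conventional kinesin and kinesin-2 did not pass the test either. Kif5b had 375 and 359.7 CPM in wt and 426 and 406 CPM in dKO libraries, with dKO above wt in both (log2 fold change 0.18, interval -0.10 to 0.46, edgeR adjusted p = 0.953). Its neuron-enriched relatives Kif5a and Kif5c had -0.12 and -0.14 and overlapping genotypes. Kif3a and Kif3b, the paired motor subunits that supply cilia, had 21.7 and 28.3 CPM in wt and 21.98 and 22.7 CPM in dKO libraries, and 39.6 and 43.3 CPM in wt and 48.3 and 42.0 CPM in dKO libraries, respectively. Their log2 fold changes were -0.17 and 0.12, and neither was past the threshold. Kif17, another kinesin-2, was low, with counts of 12 and 22 in wt against 11 and 36 in dKO cells, and Kif3c had a log2 fold change of 0.05. Kifc2, with -0.16, was the only transport motor besides Kifc3 whose dKO libraries were both below the wt libraries.

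The listed partners that link transport motors to cargo showed no calls. Of 17 such genes 13 had a log2 fold change above 0 and 4 below 0, the median was 0.07, and none had an unadjusted p under 0.05. Over all tested genes, 6965 of 14027 were above 0. Kifap3, the adaptor of Kif3a and Kif3b, had 0.08, and Kidins220, a cargo of Kif5, had 0.26. Of 13 tubulin genes, which encode the track, 12 were tested, 4 with positive and 8 with negative values and a median of -0.11. Tubb5, the most abundant, had 2124 and 1928 CPM in wt and 1925 and 1671 CPM in dKO libraries (log2 fold change -0.17), and Tubb4b had 0.06. Tubb6, named after its values were seen, was the only tubulin with an unadjusted p under 0.05 (-0.58, edgeR adjusted p = 0.575).

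The other motors were low. Kif21a, a cortical regulator of microtubule growth, was the highest at 3.25 RPKM, followed by Kif7, a ciliary regulator of Hedgehog signalling, at 3.01 RPKM and Kif24, which acts at centrioles, at 2.73 RPKM. All 9 tested members had positive log2 fold changes, from 0.02 (Kif7) to 0.98 (Kif26b), with a median of 0.22 and a median SE of 0.36. None of the 9 had an unadjusted p under 0.05. Over all tested genes, 6965 of 14027 had positive values. Kif21a had 24 and 11.6 CPM in wt and 26.8 and 21.8 CPM in dKO libraries, and 1 wt library lay apart from the rest. Kif7 had 12.5 and 14.8 CPM against 11.7 and 16.1 CPM, and Kif24 had 17.8 and 22.6 CPM against 22.7 and 24.4 CPM, where both dKO values were just above the wt values.

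The largest fold changes in this class rested on few reads. Kif26b, an atypical kinesin with no known motor activity, had counts of 7 and 3 in wt against 11 and 13 in dKO cells, with an interval from -0.64 to 2.60 on the log2 scale. Kif28 had counts of 13 and 14 in wt against 23 and 27 in dKO cells (log2 fold change 0.64, interval -0.39 to 1.67). On 4.36% of its exon bases Kif28 overlaps Ahctf1 on the same strand. Ahctf1 had 355.5 and 365.1 CPM in wt and 451.5 and 383.6 CPM in dKO libraries. The part of its reads in the Kif28 counts was not tested. Like Kif26b and Kif28, Kif26a (0.23) and Kif21b (0.17) had both dKO libraries above the wt libraries. In this class that held for 5 of the 9, beside 17.2% of all tested genes. Kif9, a motor of motile cilia, had 0.04. Just inside the count filter lay Kif26b and Kif27, the latter with counts of 11 and 7 in wt against 11 and 14 in dKO cells. Just outside lay Kif19a, which shortens cilia, with counts of 4 and 20 in wt against 6 and 6 in dKO cells, and Kif6, with 6 and 8 counts in each genotype. Kif12 had 1 count in each replicate 1 and 0 in each replicate 2. Kif1bp, the binding protein, had 36.7 and 28.1 CPM in wt and 37.6 and 28.3 CPM in dKO replicates 1 and 2, a genotype difference of 0.03 on the log2 scale.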

How the data were processed

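RNA was measured in 2 wt and 2 dKO libraries, extracted with Trizol as total RNA and prepared with Illumina TruSeq RNA kits, per the labels' protocols. The authors deposited raw read counts per Ensembl gene with gene positions. The submitters' processing notes list TopHat2 2.0.6, TopHat and HTSeq without saying what each did. No source used here gives the build, annotation or strand setting. The last gene of chromosome 1 ends at 197054592 by the table but at 195323493 by GENCODE M21 (GRCm38), so gene positions are those of the table, and promoter positions are those of RefSeq on GRCm38.p6. GENCODE M21 gave symbols by gene ID (32938 of 37991 rows), biotypes and exon lengths (the union of exons).

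Counts were filtered with filterByExpr (minimum count 10), scaled by TMM and given to edgeR's quasi-likelihood F test (edgeR 4.0.16 under R 4.3.3, robust setting). Genotype was the sole term. P-values of the 14027 genes were adjusted by Benjamini-Hochberg, and 0.05 was the threshold. SEs come from the F statistic. Every pair of libraries differed beyond sampling noise, with a chi-square of 13.04 to 31.3 for each degree of freedom. That value was 20.12 within wt and 20.04 within dKO. It was lower between genotypes for libraries sharing a number, 13.04 for replicates 1 and 15.26 for replicates 2. The scripts were tested on simulated data, in which genes of at least 1 CPM were changed by known folds. The test called 1 of 50 genes changed 1.5-fold, 19 of 50 changed 2-fold and 45 of 50 changed 4-fold. These rates were not computed for the kinesins alone. The mitotic motors had a median SE of 0.118, against 0.212 over all tested genes. The absence of a call is thus, by itself, no sign that a moderate change is absent. For 1 value in 2 libraries against 2, the smallest p of an exact permutation test is 0.333. Alternatives were other scalings and filters, a replicate block, each library left out, DESeq2 1.42.0 and limma-voom (limma 3.58.1), another exon length and another promoter window.

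Members, classes and lists were chosen with earlier results of these data known. Values per library are given for members with a p under 0.05, the 5 mitotic, 5 transport and 3 other motors with the highest RPKM, the 2 largest changes in each direction in each class, and the members nearest the count filter; from each partner list the 2 genes with the highest CPM are named. Further members are given by the same values where the text compares them. Lists were described by counts and medians, with no test over a list. Protein sequences were not used here.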

Additional observations from a re-analysis of the deposited data

How the results depend on the processing

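The count of 0 called members held when libraries were scaled otherwise (DESeq2 size factors or totals), when the filter was dropped or set to 1 CPM, with each library left out, with DESeq2 or limma-voom, and without Kif1bp. It was 2 with a replicate block, Kif1b (log2 fold change 0.56, adjusted p = 0.00033) and Kifc3 (-0.44, adjusted p = 0.0267), where edgeR called 1299 of 14027 genes (9.26%), among them Anln of the 15 spindle partners, Bub1b, Ttk and Lin54 of the 15 G2 and M genes, Tubb6 and Tubg1 (-0.44 without the block) of the 12 tested tubulins, and none of the 17 cargo partners. Deviations of libraries that share a number correlated (r = 0.65 over all genes and 0.771 over the 38 members), though the labels do not pair them. Under the other settings the adjusted p of Kif1b ran from 0.163 (no filter) to 0.9996 (without dKO replicate 1). The transport median was -0.08 with the CPM filter. With 1 library left out, the transport median ran from -0.041 to 0.021, the mitotic median from 0.027 to 0.096 and the median of the other motors from 0.099 to 0.315. The transport median became positive without dKO replicate 1 (0.021) and without dKO replicate 2 (0.017), and the mitotic median was highest without dKO replicate 2 and the other motors' median lowest. Without 1 library, 6 to 10 members changed sign, none with a call. The 10 highest levels held the same genes with the longest transcript as length and with total counts only. Of 11 mitotic promoters with either motif, 9 had one in the 100-base window. Low counts limit Kif26b, Kif27, Kif28, Kif17 and Kif9, whose intervals reach past a 2-fold change.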

Other observations

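Kinesin pseudogenes and the antisense row outside the rule held few or no reads. The pseudogene Kif22-ps had 0 counts in both wt and 1 count in both dKO libraries, Kif4-ps had 0 and 1 in each genotype, and Kifc5c-ps had 1 count in a single dKO library. The antisense transcript Kif16bos had 0 counts in all 4 libraries. Kifc5b, the close relative of Kifc1, had a log2 fold change of -0.01 (edgeR adjusted p = 0.995).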
